A study of Sus scrofa with 36 samples.

Results

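The border zone is the strip of living muscle beside a myocardial infarct. Here it was taken from 3 pigs infarcted at 14 days of age and killed 1 day later (Old Early BZ) and set against the left ventricle of 3 sham-operated pigs of the same ages (Old Early Sham). These are 6 of the 36 libraries of the series. All genes that passed a filter on low counts were compared, which left 14537 of the 25880 genes in the table. The filter uses all 36 libraries and not the result of the test. A gene can still pass it through counts in some groups alone, so it is not independent of the comparison.

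The pigs were Yorkshire-landrace. In the Old Early BZ pigs, branches of the left anterior descending and circumflex coronary arteries were tied off for good, through the opened left chest, which the labels say gives an infarct of 15 to 20% of the left ventricular wall. The sham samples came from the anterior wall of the left ventricle, and the labels do not describe the sham operation further. All pigs, sham pigs included, received ketoprofen, an anti-inflammatory painkiller, and the antibiotic enrofloxacin. Other groups used below, also of 3 libraries each, are the infarct zone (Old Early IZ) of the same 3 infarcted pigs, BZ and Sham of pigs operated at 2 days and killed 1 day later (Young Early), and BZ and Sham of pigs operated at 14 days and killed 1 week later (Old Late). At harvest the Old Early pigs were 15 days old, the Young Early pigs 3 days and the Old Late pigs 21 days. Each library is 1 piece of 50 to 80 mg of tissue from 1 pig, so BZ and Sham differ by pig and by the place in the wall as well as by the ligation.

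As background, an infarct kills heart muscle within hours, and dead cells release signals that make living neighbours produce chemokines. Neutrophils enter first, monocytes follow and become macrophages, and fibroblasts then lay down matrix that holds the wall together. Muscle beside the infarct survives with less blood and more strain, and is known for natriuretic peptide release, for loss of contractile and mitochondrial gene products, and for altered ion currents. The heart of a piglet loses most of its capacity to make new muscle cells in the days after birth.

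Old Early BZ libraries held 23275116 to 29954789 counts and Old Early Sham libraries 18635109 to 28488330, within the range of all 36 libraries (8113200 to 39789874 counts). Both groups were prepared in the same library batch, and RNA integrity numbers ran from 6.8 to 7.8 in BZ and from 7.1 to 7.6 in Sham. Mitochondrially encoded genes took 18.3 to 27.7% of the counts of a BZ library and 27.6 to 44.1% of a Sham library. Y-linked genes were detected in all 3 BZ pigs and in 2 of the 3 Sham pigs. Of the cell type markers, the 5 cardiomyocyte genes found summed to 26080 to 53890 in BZ on the counts-per-million scale (CPM, with TMM factors) and to 56730 to 57720 CPM in Sham, so heart muscle RNA was present throughout and lowest in BZ replicate 3. The 4 neutrophil markers found summed to 26.9 to 60.9 CPM in BZ and 0.26 to 0.958 CPM in Sham, the 6 macrophage markers to 329.7 to 708 and 116 to 165 CPM, and the 6 fibroblast markers to 1610 to 1795 and 489.5 to 695.5 CPM. The 4 smooth muscle markers summed to 750.1 to 1094 CPM in BZ and 213.5 to 266 CPM in Sham, and the 5 endothelial markers found to 523 to 792 and 299.5 to 308 CPM, with EGFL7 at 0 in all 6 libraries. The 3 atrial markers found summed to 232 to 575 CPM in BZ and 62.5 to 217 CPM in Sham, and red blood cell markers, at 202 to 1005 and 197 to 509 CPM, overlapped between the groups. In bulk tissue, more or fewer cells of a type cannot be told apart from more or less RNA per cell, and the part of cell makeup in the changes below was not tested.

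One day after ligation, most tested members of the lists of inflammation, neutrophil, macrophage, matrix and cytoskeleton genes rose in the border zone relative to sham ventricle. A minority of the members of the sarcomere, ion handling, fatty acid oxidation and oxidative phosphorylation lists fell, and 1 member of these lists rose. With edgeR's quasi-likelihood test and a Benjamini-Hochberg adjusted p under 0.05, 3084 genes (21.2% of those tested) differed: 1961 (13.5%) rose and 1123 (7.73%) fell. The rises were the larger changes. At least 8-fold differences were found for 225 of the genes that rose and for 8 of those that fell, and at least 2-fold ones for 1426 and 466. The median log2 fold change of all genes tested was 0.02. The 3 BZ and 3 Sham libraries did not overlap in 1893 of the genes that rose and in 1069 of those that fell, beside 43.2% of all genes tested. Leaving out any 1 of the 6 libraries lowered the counts, most of all without Sham replicate 2, when 1227 genes rose and 551 fell. The genes that fell numbered 707 without Sham replicate 1, 711 without Sham replicate 3, 733 without BZ replicate 2 and 702 without BZ replicate 3. In every one of the 6 such fits, 1007 of the rises and 314 of the falls kept their call.

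**Figure D1:**
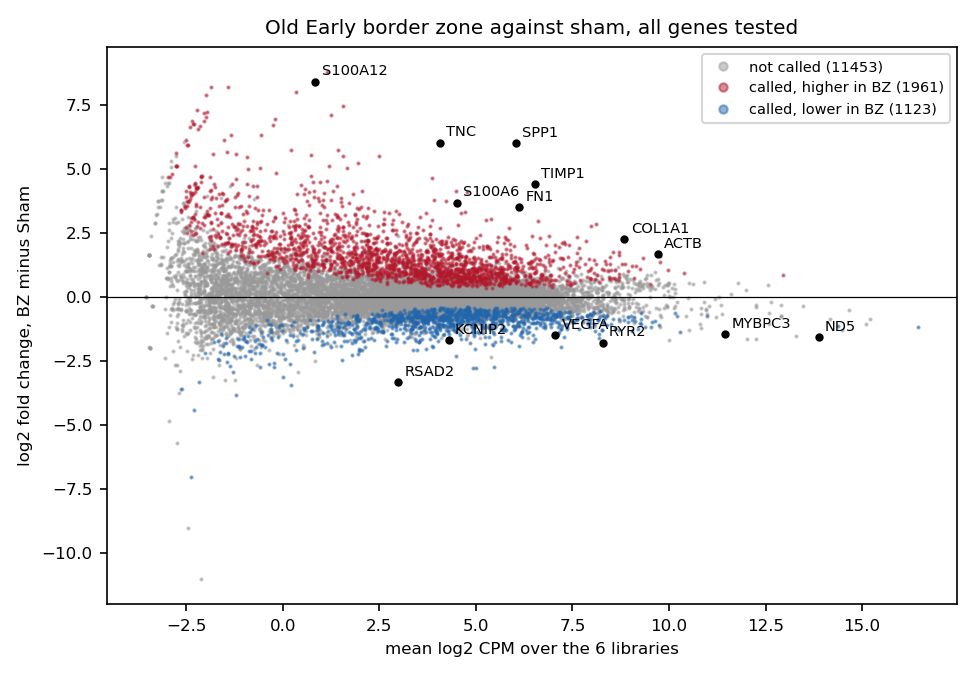
Log2 fold change, Old Early BZ minus Old Early Sham (vertical), against the mean log2 CPM of the 6 libraries (horizontal), 1 point per gene tested (14537 genes, n = 3 libraries per group). The 1961 genes that rose reach further from 0 than the 1123 that fell, and TNC, SPP1 and TIMP1 rose at high levels.

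The lowest p belonged to a gene without a symbol, ENSSSCG00000029449, on chromosome 9 (127464119 to 127481730 in the deposited coordinates, whose genome build is not given in the sources used here). It had 23.0, 33.6 and 49.8 CPM in BZ and 0.213, 0.052 and 0.306 CPM in Sham, a log2 fold change of 7.44 ± 0.55 (SE, n = 3 per group, as in all that follow; adjusted p = 6.3e-10). TGM3, a transglutaminase, had the largest rise of the genes that have a symbol and average at least 1 on the log2 CPM scale, with 88.9, 27.6 and 11.4 CPM in BZ and 0.16, 0 and 0.115 CPM in Sham (log2 fold change 8.76 ± 1.33, adjusted p = 7.6e-05). SLC2A5, the fructose transporter GLUT5, had 5.88, 13.3 and 23.1 CPM in BZ and 0.319, 0.156 and 0.688 CPM in Sham (5.10 ± 0.62, adjusted p = 1.1e-05). SLC11A1, a metal transporter of phagocytes, had 13.2, 7.37 and 35.6 CPM in BZ and 0.638, 0.52 and 0.535 CPM in Sham (5.04 ± 0.73, adjusted p = 5.9e-05). For these 4 genes every BZ library stood above every Sham library. For the 3 with a symbol this was a condition of the choice, and the other was picked for its low p. CHI3L1 and MYBPH were also among the 15 largest rises, but they share 82.5% and 75.1% of their exon bases with a neighbour, so their counts cannot be assigned to 1 gene without knowing the strand setting of the counting.

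Inflammatory signals rose as a group. Of 36 tested members of a list of acute inflammation cytokines, chemokines, receptors and mediators, 24 rose and none fell (12 did not pass the test). The median log2 fold change was 2.04, and 18 kept their call without any 1 library. IL1B, TNF, SELE, IL1RN and SERPINA3 had no symbol match and were not tested. CCL2, the chemokine that draws monocytes, had 116, 78.8 and 149 CPM in BZ and 6.54, 5.31 and 8.37 CPM in Sham (4.08 ± 0.48, adjusted p = 1.1e-05). PTX3, a secreted pattern recognition protein, had 88.2, 14.1 and 31.5 CPM in BZ and 0.798, 0.468 and 1.61 CPM in Sham (5.50 ± 0.67, adjusted p = 1.1e-05). Both were well above every Sham library in each BZ library, and BZ replicate 2 was the lowest of the 3 BZ libraries for each. IL6 was called (adjusted p = 0.008) but rare, with 48 counts over the 3 BZ libraries and 1 count over the 3 Sham libraries, a ratio of 34.2 with an exact 95% interval of 5.85 to 1380 that covers counting error only. CXCL8, a neutrophil chemokine, did not pass, with 20 counts in BZ and 3 in Sham (adjusted p = 0.25).

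Other members of the same list are signalling proteins and receptors. SOCS3, an inhibitor of JAK and STAT signalling that cytokines induce, had 42.8, 29.4 and 51.1 CPM in BZ and 5.32, 5.46 and 4.74 CPM in Sham (2.99 ± 0.35, adjusted p = 1.1e-05). STAT3, which carries the IL-6 signal to the nucleus, had 123, 107 and 136 CPM in BZ and 53.8, 51.1 and 64.6 CPM in Sham (1.11 ± 0.17, adjusted p = 8.3e-05). The leukocyte adhesion receptor ICAM1 had 24.6, 25 and 23.9 CPM in BZ and 7.39, 6.45 and 7.57 CPM in Sham (1.78 ± 0.28, adjusted p = 8.7e-05). For these 3 genes the libraries of a group lay close together and the groups were well apart. The IL-1 decoy receptor IL1R2 had 2.49, 0.94 and 1.84 CPM in BZ and 0.106, 0.052 and 0.0764 CPM in Sham (4.40 ± 0.80, adjusted p = 0.00034).

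Neutrophil genes were near absent in Sham libraries and higher in BZ. Of 15 tested, 12 rose and none fell, with a median log2 fold change of 3.19, or 2.88 with the member that no Sham library detected set at a floor of 3 counts over the group. S100A12, a calcium-binding alarm protein of neutrophils, had 27.5, 12.9 and 28.2 CPM in BZ and 0.106, 0.052 and 0.0382 CPM in Sham (8.39 ± 1.02, adjusted p = 1.1e-05). CSF3R, the receptor for the neutrophil growth factor G-CSF, had 11.1, 6.47 and 13.6 CPM in BZ and 0.745, 0.156 and 0.459 CPM in Sham (4.51 ± 0.73, adjusted p = 0.00012). S100A8, a neutrophil alarm protein like S100A12, had 1244 counts over the BZ libraries and 3 over the Sham libraries, a ratio of 295 with an exact 95% interval of 101 to 1430 for counting error. All 3 genes were lowest in BZ replicate 2 within the BZ group.

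Of 30 monocyte and macrophage genes tested, 26 rose, 4 did not pass and none fell, with a median of 1.95, and 18 kept their call without any 1 library. CD14, the endotoxin co-receptor of monocytes, had 53.5, 24.2 and 34.8 CPM in BZ and 4.04, 7.55 and 5.16 CPM in Sham (2.75 ± 0.60, adjusted p = 0.0019). The haemoglobin scavenger receptor CD163 had 113, 41.6 and 69.9 CPM in BZ and 11.2, 18.3 and 16 CPM in Sham (2.30 ± 0.42, adjusted p = 0.00039). LGALS3, the lectin galectin-3, had 11.9, 21.7 and 43.1 CPM in BZ and 2.87, 2.03 and 2.56 CPM in Sham (3.36 ± 0.72, adjusted p = 0.0015). The order of the BZ libraries was not the same for these genes: replicate 1 led for CD14 and CD163, and replicate 3 for LGALS3. The lipid receptor TREM2 (3.72 ± 0.64, adjusted p = 0.00021) and the scavenger receptor MSR1 (3.47 ± 0.59, adjusted p = 0.00018) also led in replicate 3, with 6.58, 8.01 and 16 CPM and 7.95, 14.4 and 25.3 CPM in BZ, against 0.573 to 0.917 CPM and 1.04 to 1.72 CPM in Sham. Lymphocyte genes showed less: 5 of 18 rose, none fell, and 2 of the 5 kept their call without any 1 library. One of those 2 was NKG7, a granule protein of cytotoxic cells, with 11.5, 10 and 14.9 CPM in BZ and 2.18, 1.82 and 3.33 CPM in Sham (2.30 ± 0.50, adjusted p = 0.0018).

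**Figure D2:**
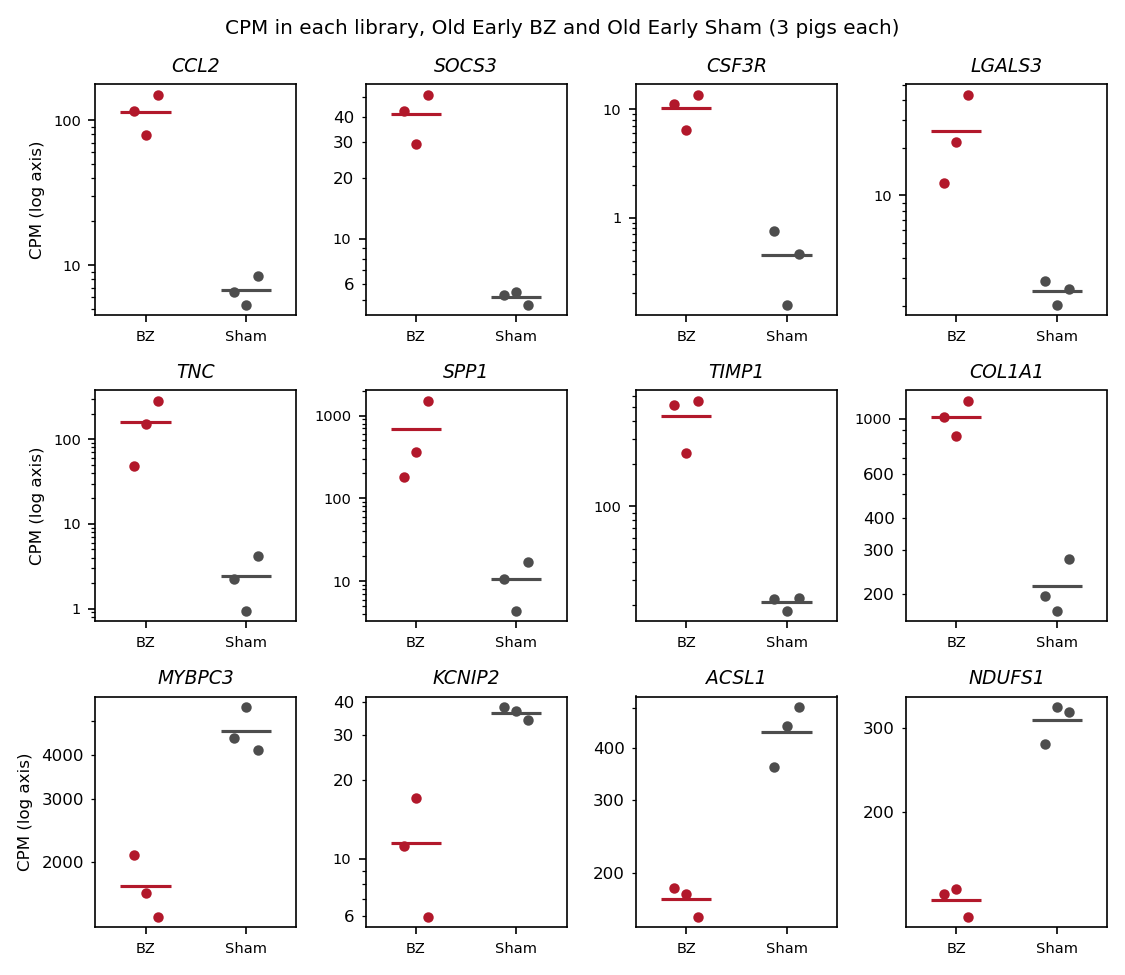
CPM (log axis) of 12 genes in each of the 3 Old Early BZ libraries (left, red) and 3 Old Early Sham libraries (right, grey), with horizontal bars at the group means. The 8 genes in the upper rows are higher in every BZ library than in any Sham library, and the 4 in the bottom row lower; SPP1 spreads from 180.3 to 1499 CPM within BZ.

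Provisional matrix and its regulators were among the largest rises at high expression. Of 25 matricellular and provisional matrix genes tested, 17 rose and 1, FGL2, fell (log2 fold change -0.85), with a median of 1.56. TNC, tenascin-C, an adhesion-modulating glycoprotein of wounds (ENSSSCG00000005494, chromosome 1, 255532022 to 255630963), had 48.9, 152 and 284 CPM in BZ and 2.23, 0.937 and 4.17 CPM in Sham (6.02 ± 0.73, adjusted p = 1.1e-05). SPP1, the secreted phosphoprotein osteopontin (ENSSSCG00000009216, chromosome 8, 131077026 to 131085759), had 180.3, 364 and 1499 CPM in BZ and 10.6, 4.37 and 16.9 CPM in Sham (5.99 ± 0.99, adjusted p = 0.00014). POSTN, periostin, had 85.4, 138 and 113 CPM in BZ and 12.1, 8.8 and 21.3 CPM in Sham (2.99 ± 0.60, adjusted p = 0.00091). The BZ libraries were spread widely for TNC and SPP1, with replicate 3 highest, and narrowly for POSTN, and none of the 3 genes overlapped Sham. FN1, fibronectin, had 73.8, 211 and 531 CPM in BZ and 22.8, 19.7 and 29.1 CPM in Sham (3.51 ± 0.94, adjusted p = 0.0088), and lost its call without BZ replicate 3 (2.58, adjusted p = 0.062).

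Collagens and their processing enzymes rose less steeply but broadly. Of 37 fibrillar collagen and other matrix genes, 27 rose, 10 did not pass and none fell, with a median of 1.37, and 15 of the 27 kept their call without any 1 library. COL1A1, the main chain of type I collagen, had 1021, 850.3 and 1178 CPM in BZ and 196, 170.5 and 276 CPM in Sham (2.25 ± 0.38, adjusted p = 0.00017). COL5A1, which seeds collagen fibrils, had 145, 189 and 276 CPM in BZ and 44.0, 27.7 and 46.3 CPM in Sham (2.37 ± 0.39, adjusted p = 0.00015). BGN, the proteoglycan biglycan, had 452, 378 and 517 CPM in BZ and 84.8, 74.2 and 105 CPM in Sham (2.35 ± 0.42, adjusted p = 0.00033). The 3 libraries of each group were within about 2-fold of each other for all 3 genes. Fibroblast genes, a list that shares collagens with the matrix list, had 15 of 23 members higher and none lower (median 1.38). Of 15 basement membrane genes, 4 rose and 1, LAMB2, fell (log2 fold change -0.96, adjusted p = 0.00091), which shares exon bases with USP19.

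Among matrix proteases and their inhibitors 14 of 24 rose and 1 fell, with a median of 1.44, and all 14 rises kept their call without any 1 library. TIMP1, a metalloprotease inhibitor, had 516, 239 and 554 CPM in BZ and 22.2, 18.2 and 22.3 CPM in Sham (4.38 ± 0.66, adjusted p = 7.3e-05). MMP2, a gelatinase, had 327, 274 and 184 CPM in BZ and 92.0, 76.2 and 103 CPM in Sham (1.53 ± 0.31, adjusted p = 0.00096). Both were higher in every BZ library than in any Sham library, and BZ replicate 3 was the highest BZ library for TIMP1 and the lowest for MMP2. MMP11 was the member that fell, with 84.6, 42.5 and 42.6 CPM in BZ and 190.0, 252 and 86.1 CPM in Sham (-1.64 ± 0.43, adjusted p = 0.0072; -1.28 and adjusted p = 0.061 without Sham replicate 2).

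Most S100, annexin and cytoskeleton genes were higher, and contractile genes of smooth muscle were higher in part. Of the latter, ACTA2, TAGLN, CNN1, CALD1 and ACTG2 rose. MYH11, SMTN, LMOD1, TPM2, MYL9 and MYLK did not pass. Of 30 S100, annexin and cytoskeleton genes, 25 rose and none fell (median 1.49), and of 20 smooth muscle and myofibroblast genes, 12 rose and none fell (median 0.87). S100A6, a calcium-binding protein of proliferating and injured cells, had 68.6, 66.0 and 119 CPM in BZ and 6.92, 4.11 and 8.68 CPM in Sham (3.68 ± 0.54, adjusted p = 6.3e-05). COTL1, an actin-binding protein of leukocytes, had 74.2, 74.2 and 138 CPM in BZ and 5.85, 4.42 and 5.89 CPM in Sham (4.14 ± 0.55, adjusted p = 2.8e-05). ACTB, cytoplasmic actin and a gene often used as a reference in quantitative PCR, had 1277, 1447 and 1786 CPM in BZ and 414, 569 and 436 CPM in Sham (1.67 ± 0.31, adjusted p = 0.00045). ACTA2, the actin of smooth muscle and myofibroblasts, had 186, 297 and 334 CPM in BZ and 78.8, 55.9 and 67.7 CPM in Sham (2.01 ± 0.37, adjusted p = 0.00046). None of these 4 genes overlapped between the groups, which for COTL1 was a condition of the choice.

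Endothelial genes were higher as well, with 13 of 22 up, none down and a median of 0.90. PECAM1, the adhesion molecule CD31, had 284, 415 and 367 CPM in BZ and 119.6, 131 and 120.2 CPM in Sham (1.53 ± 0.22, adjusted p = 4.9e-05). PLVAP, which forms the diaphragms of fenestrated and activated endothelium, had 144, 173 and 157 CPM in BZ and 62.1, 37.0 and 27.4 CPM in Sham (1.91 ± 0.30, adjusted p = 9.8e-05). ANGPT2, a destabiliser of vessels, had 7.44, 13.8 and 23.1 CPM in BZ and 4.84, 3.44 and 5.01 CPM in Sham (1.74 ± 0.41, adjusted p = 0.0036). Each of the 3 was higher in every BZ library, and BZ replicate 1 was the lowest for all 3. Of 36 growth factor and growth factor regulator genes, 14 rose and 3 fell, beside 13.5% and 7.73% of all genes tested. The falls were near that share, so those given below are single genes and not a result about the list. NRG1, neuregulin, a survival factor for cardiomyocytes, rose by 2.78 ± 0.66 (adjusted p = 0.0037) at 0.413 to 1.47 CPM in BZ and 0.0532 to 0.208 CPM in Sham, and IGF1, insulin-like growth factor 1, had 7.76, 4.06 and 5.73 CPM in BZ and 1.17, 0.885 and 1.15 CPM in Sham (2.45 ± 0.49, adjusted p = 0.0009). The 3 that fell were FGF1, PDGFC (-0.84 ± 0.25, adjusted p = 0.016; -0.75 and adjusted p = 0.075 without Sham replicate 2, -0.59 and adjusted p = 0.12 without BZ replicate 3) and VEGFA. VEGFA, the main growth factor for vessels, had 60.5, 65.2 and 122 CPM in BZ and 229, 297 and 167 CPM in Sham (-1.49 ± 0.43, adjusted p = 0.015), and lost its call without Sham replicate 2 (-1.26, adjusted p = 0.076), BZ replicate 1 (-1.31, adjusted p = 0.068) or BZ replicate 2 (-1.34, adjusted p = 0.065). FGF1, a fibroblast growth factor, had 46.9, 41.2 and 37.3 CPM in BZ and 123, 110.3 and 121 CPM in Sham (-1.49 ± 0.25, adjusted p = 0.00014).

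**Figure D3:**
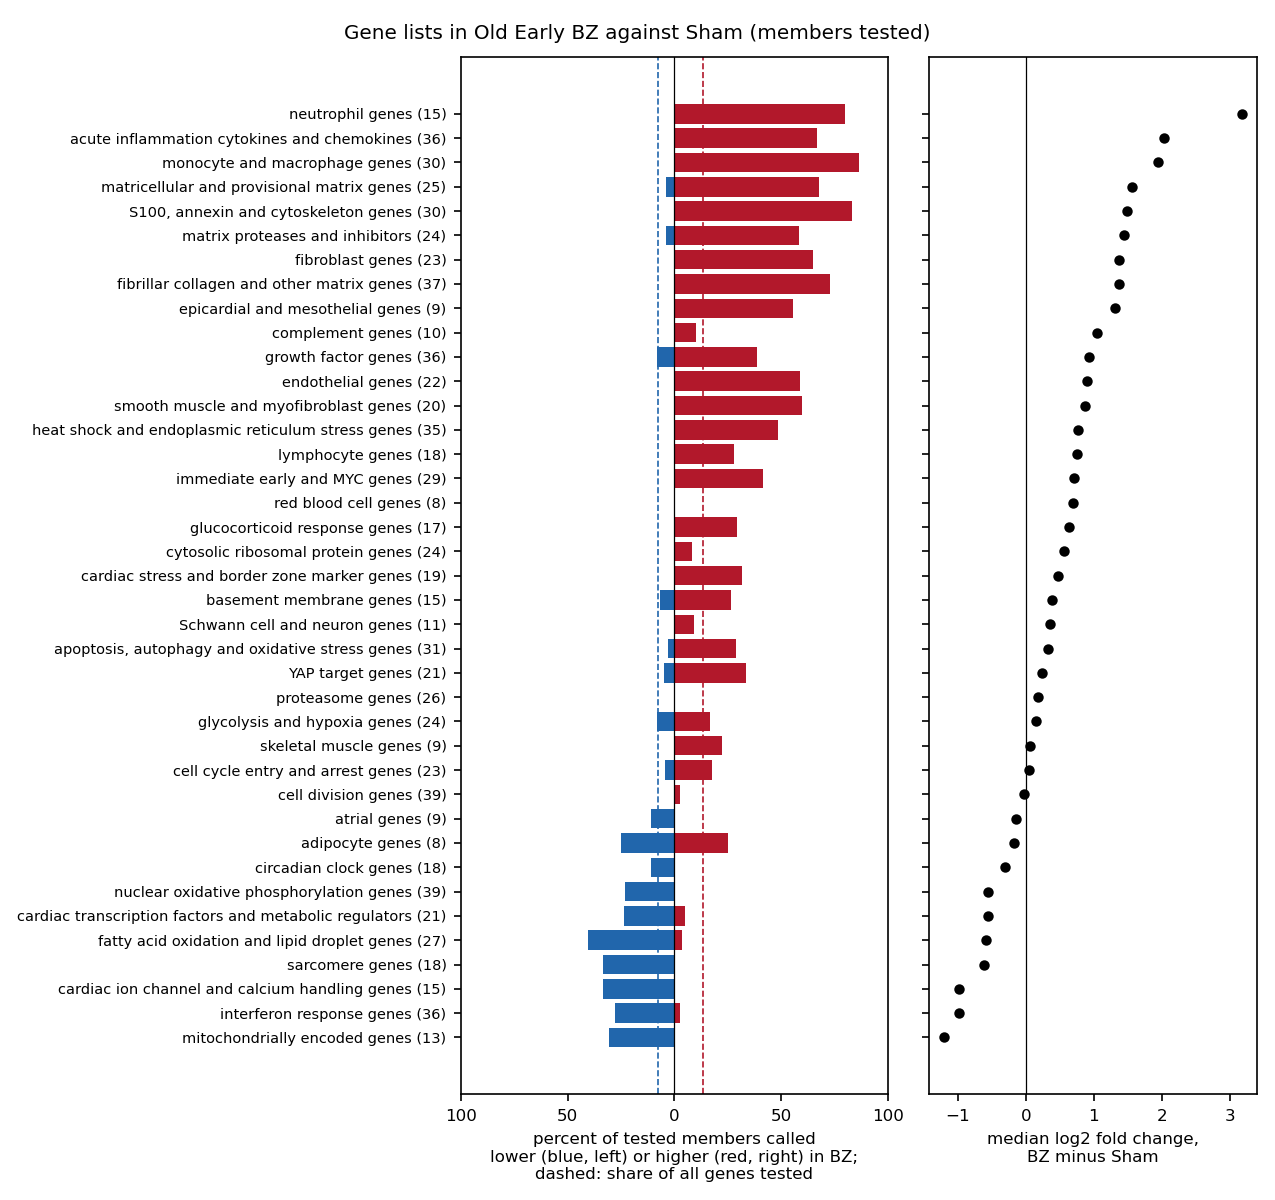
Left, percent of the tested members of each gene list but the sex chromosome one (number tested in brackets) called higher (red) or lower (blue) in Old Early BZ than in Old Early Sham, with dashed lines at the shares of all genes tested (13.5% and 7.73%). Right, the median log2 fold change of the tested members; lists run from 3.19 for neutrophil genes down to -1.21 for mitochondrially encoded genes.

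Stress and signalling genes rose without falls. Of 35 heat shock and endoplasmic reticulum (ER) stress genes, 17 rose and none fell (median 0.76), and of 29 immediate early genes and MYC relatives, 12 rose and none fell (median 0.71). Most of the 17 were ER genes. The heat shock genes among them were HSP90AB1, HSPH1, DNAJB1 and BAG3. Other heat shock genes did not pass, such as HSPA8 (0.03), HSPD1 (-0.13) and HSF1 (0.35). HSPA5, the main ER chaperone, had 398, 463 and 693 CPM in BZ and 222, 222 and 203 CPM in Sham (1.27 ± 0.25, adjusted p = 0.00068). CRELD2, a secreted ER stress protein, had 27.7, 21.4 and 44.2 CPM in BZ and 6.01, 4.84 and 4.43 CPM in Sham (2.61 ± 0.41, adjusted p = 9.7e-05). MYC, a growth-promoting transcription factor, had 20.3, 27.5 and 29.7 CPM in BZ and 11, 10.1 and 8.79 CPM in Sham (1.37 ± 0.35, adjusted p = 0.0062). DUSP5, a phosphatase that ERK signalling induces, had 2.71, 4.10 and 7.93 CPM in BZ and 0.638, 0.625 and 1.22 CPM in Sham (2.54 ± 0.44, adjusted p = 0.00025). BZ replicate 3 was the highest BZ library for all 4, and all 4 kept their call without any 1 library. RUNX1, a transcription factor known from dedifferentiating cardiomyocytes and from blood cells, had 8.91, 8.38 and 16.9 CPM in BZ and 0.638, 1.25 and 1.72 CPM in Sham (3.22 ± 0.50, adjusted p = 8.8e-05).

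Heart muscle stress genes changed in part. Of 19 cardiac stress and border zone marker genes, 6 rose and none fell, with a median of 0.47, and 1 of the 6 kept its call without any 1 library. NPPB, which encodes B-type natriuretic peptide, had 524, 1170.5 and 414 CPM in BZ and 73.4, 111 and 128 CPM in Sham (2.76 ± 0.79, adjusted p = 0.013), with an adjusted p of 0.062 without Sham replicate 1 (2.56) and 0.066 without BZ replicate 2 (2.17). UCHL1, a deubiquitinase of neurons and stressed muscle, was the member that kept its call, at 7.86, 5.90 and 6.75 CPM in BZ and 1.38, 1.15 and 1.3 CPM in Sham (2.42 ± 0.54, adjusted p = 0.0023). ANKRD1, a strain-responsive protein of the sarcomere, had 3587, 5483 and 3778 CPM in BZ and 2994, 3209.7 and 2678 CPM in Sham and did not pass (0.53 ± 0.34, adjusted p = 0.28). The groups did not overlap for any of these 3 genes.

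Of 18 sarcomere genes, 6 fell, 12 did not pass and none rose, with a median of -0.62, and 5 of the 6 kept their call without any 1 library. MYBPC3, cardiac myosin-binding protein C (ENSSSCG00000013236, chromosome 2, 15247539 to 15269299), had 2084, 1624 and 1394 CPM in BZ and 4467, 5473 and 4133 CPM in Sham (-1.46 ± 0.33, adjusted p = 0.0022). NEBL, nebulette, an actin-binding protein of the cardiac Z-disc, had 723, 818 and 807 CPM in BZ and 1981, 2174 and 1821 CPM in Sham (-1.35 ± 0.25, adjusted p = 0.00043). CKMT2, the mitochondrial creatine kinase of muscle, had 625, 479.8 and 397 CPM in BZ and 1239, 1218 and 952 CPM in Sham (-1.18 ± 0.28, adjusted p = 0.0039). No BZ library reached the lowest Sham library for any of these 3 genes. MYH6, the alpha heavy chain of cardiac myosin, had 24352, 24157 and 16591 CPM in BZ and 31977, 29119 and 32694 CPM in Sham and did not pass (-0.53 ± 0.23, adjusted p = 0.11); reads of its close paralog MYH7 could be split with it. CKM, cytosolic muscle creatine kinase, was uneven within BZ, with 2440.3, 1354 and 417 CPM there and 3513, 3129 and 2140.1 CPM in Sham (-1.06 ± 0.42, adjusted p = 0.072). BZ replicate 3 was the lowest BZ library for MYBPC3, CKMT2, MYH6 and CKM but not for NEBL. It also had the lowest sum of cardiomyocyte markers. Those markers are heart muscle genes too, so this match is not independent evidence on muscle content. Without BZ replicate 3 the median of the sarcomere list was -0.44.

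Of 15 genes of cardiac ion channels and calcium handling, 5 fell, 10 did not pass and none rose, with a median of -0.98. Without Sham replicate 3, 1 was lower and the median was -0.85. Falls over all genes tested then went from 1123 to 711, so the lower count cannot be tied to this library. KCNIP2, the subunit that sets the transient outward potassium current, had 11.2, 17.2 and 5.97 CPM in BZ and 38.3, 36.8 and 34.2 CPM in Sham (-1.67 ± 0.40, adjusted p = 0.0039) and was the 1 member that kept its call without any 1 library. RYR2, the calcium release channel, had 113, 183 and 216 CPM in BZ and 542, 562 and 657 CPM in Sham (-1.78 ± 0.60, adjusted p = 0.035). It was well separated, yet its adjusted p lay between 0.059 and 0.12 without each of the 6 libraries in turn (log2 fold changes -1.99 to -1.56). ATP2A2, the calcium pump of the sarcoplasmic reticulum, had 905, 808 and 1139 CPM in BZ and 2077, 2452 and 2443 CPM in Sham and did not pass (-1.29 ± 0.48, adjusted p = 0.053). KCNJ3, an inward rectifier subunit typical of atria, fell too, with 20.5, 22.2 and 17.9 CPM in BZ and 44.6, 51.0 and 61.3 CPM in Sham (-1.37 ± 0.28, adjusted p = 0.00099).

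Energy metabolism genes of heart muscle fell in part, and most did not pass the test. Of 27 fatty acid oxidation and lipid droplet genes, 11 fell and 1 rose (median -0.59), of 39 nuclear genes of oxidative phosphorylation 9 fell and none rose (median -0.56, or -0.25 without BZ replicate 3), and of 13 mitochondrially encoded genes 4 fell and none rose (median -1.21). Without any 1 library, 3 of the first list, 3 of the second and none of the third kept a call. ACSL1, which activates long-chain fatty acids, had 184, 177 and 156 CPM in BZ and 361, 451 and 503 CPM in Sham (-1.35 ± 0.34, adjusted p = 0.006). NDUFS1, the largest subunit of complex I, had 135, 139 and 121 CPM in BZ and 277, 331 and 323 CPM in Sham (-1.24 ± 0.29, adjusted p = 0.0035). UQCRC2, a core subunit of complex III, had 261, 227 and 174 CPM in BZ and 420.2, 474 and 441 CPM in Sham (-1.01 ± 0.24, adjusted p = 0.0041). In all 3, each BZ library was well under each Sham library, and the libraries of a group lay close together. The regulators PPARGC1A, a coactivator of mitochondrial biogenesis, and ESRRG, a nuclear receptor of energy genes, fell by 1.14 ± 0.29 (adjusted p = 0.0058) and 1.42 ± 0.43 (adjusted p = 0.018) on the log2 scale. PPARGC1A missed the threshold without Sham replicate 2 (-0.89, adjusted p = 0.055), and ESRRG without BZ replicate 1 (-1.34, adjusted p = 0.062) or BZ replicate 3 (-1.27, adjusted p = 0.082). The member that rose was ANGPTL4, a lipase inhibitor, at 130.4, 72.6 and 68.6 CPM in BZ and 11.2, 13.5 and 44.9 CPM in Sham (1.96 ± 0.59, adjusted p = 0.019); its adjusted p was 0.095 without Sham replicate 1 (1.63), 0.10 without Sham replicate 2 (1.69) and 0.079 without BZ replicate 1 (1.60). PDK4, which switches the heart from glucose to fat, had 209, 299 and 233 CPM in BZ and 40.2, 163 and 601 CPM in Sham, a spread in Sham that left no call (adjusted p = 0.93).

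Genes with the largest falls at measurable levels included members outside these lists. RNF207, a cardiac ubiquitin ligase that modulates a potassium channel (ENSSSCG00000003368, chromosome 6, 67105763 to 67118145), had 84.4, 61.2 and 81.6 CPM in BZ and 298, 354 and 235 CPM in Sham (-1.97 ± 0.30, adjusted p = 8.7e-05); 23.3% of its exon bases lie in neighbouring genes. ADHFE1, a mitochondrial alcohol dehydrogenase, had 22.9, 17.0 and 8.65 CPM in BZ and 60.6, 56.3 and 49.8 CPM in Sham (-1.78 ± 0.32, adjusted p = 0.00028). ADAMTS6, a metalloprotease, had 15.0, 20.1 and 26.0 CPM in BZ and 87.1, 68.4 and 62.9 CPM in Sham (-1.84 ± 0.45, adjusted p = 0.0048). The rule that picked these 3 genes required no overlap between the groups, so their separation adds no support. Each kept its call without any 1 library.

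Glycolysis and hypoxia genes did not move as 1 group, with 4 of 24 higher, 2 lower and a median of 0.15. These counts were near the shares of all genes tested, 13.5% higher and 7.73% lower, so the genes below are single genes and not a result about the list. ENO1, enolase, had 423, 426 and 645 CPM in BZ and 133, 101 and 96.2 CPM in Sham (2.18 ± 0.36, adjusted p = 0.00015), and NDRG1, a hypoxia-induced protein, had 27.9, 34.4 and 45.2 CPM in BZ and 13, 11.3 and 11 CPM in Sham (1.61 ± 0.34, adjusted p = 0.0015). The other rises were PFKFB3 (1.53 ± 0.42) and P4HA2 (1.12 ± 0.25), and the falls were VEGFA, given above, and PFKFB4 (-1.35 ± 0.25). PFKFB3 and PFKFB4 encode enzymes that make the same activator of glycolysis. PFKFB3 had 9.77, 10.9 and 19.3 CPM in BZ and 3.30, 5.10 and 5.35 CPM in Sham, and PFKFB4 had 7.76, 6.95 and 13 CPM in BZ and 24.3, 24.2 and 22.3 CPM in Sham. The pair thus differed in opposite directions in all 6 libraries, although PFKFB3 missed the threshold without Sham replicate 1 (1.35, adjusted p = 0.057) and without BZ replicate 3 (1.17, adjusted p = 0.074).

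Few cell division genes passed the test 1 day after infarction. Of 39 tested, MCM3, a subunit of the replication helicase, was the only one to pass (1.21 ± 0.43, adjusted p = 0.042), none fell, and the median was -0.03. MCM3 had 13.3, 12.4 and 17.0 CPM in BZ and 7.29, 6.92 and 4.32 CPM in Sham, and its adjusted p lay between 0.056 and 0.16 without each of the 6 libraries in turn (log2 fold changes 1.01 to 1.35). CDK1, the kinase that starts mitosis, had 14.4, 16.2 and 8.56 CPM in BZ and 16.2, 14.6 and 13.1 CPM in Sham (-0.17 ± 0.46, adjusted p = 0.82; 0.061 without BZ replicate 3). CCND1, cyclin D1, had 66.3, 73.8 and 72.9 CPM in BZ and 63.8, 77.7 and 65.4 CPM in Sham (0.04 ± 0.30, adjusted p = 0.93; -0.011 without Sham replicate 1). Both overlapped between the groups. With 3 libraries a group, 34% of simulated 2-fold changes were called. The simulation changed 100 genes by that size and 100 by 4-fold, against 3084 genes called in the data. The adjusted p depends on how many genes change, so the share in the data could differ. Of 23 genes of cell cycle entry and arrest, 4 rose and 1 fell, with a median of 0.04. That is near the shares of all genes tested, 13.5% higher and 7.73% lower. CDK4, a partner of D cyclins, was among the 4 (0.89 ± 0.17, adjusted p = 0.00058). All 26 proteasome genes tested missed the threshold (median 0.18; the median of all genes was 0.02).

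The calls for interferon response genes depended on 1 sham library. Of 36 tested, 10 were called lower and 1 higher in BZ, with a median of -0.98; without Sham replicate 3 none was lower, 1 was higher, and the median was 0.12. RSAD2, the antiviral protein viperin, had 2.97, 4.66 and 4.89 CPM in BZ and 16.5, 1.87 and 107 CPM in Sham (-3.33 ± 0.91, adjusted p = 0.0097; -1.14 and adjusted p = 0.36 without Sham replicate 3). ISG15, a ubiquitin-like protein that interferon induces, had 16.1, 14.8 and 12.9 CPM in BZ and 46.5, 5.26 and 163 CPM in Sham (-2.29 ± 0.70, adjusted p = 0.02; -0.82 and adjusted p = 0.42 without Sham replicate 3). Without BZ replicate 2 or BZ replicate 3, ISG15 also missed the threshold, with -2.30 and an adjusted p of 0.056, and -2.21 and an adjusted p of 0.07. The 3 BZ libraries lay close together, between Sham replicate 2 at the low end and Sham replicates 1 and 3 at the high end, so BZ was not on the same side of all 3 sham pigs. Neither gene was called when the groups were fitted alone (adjusted p = 0.085 for RSAD2 and 0.13 for ISG15) or with limma-voom (0.13 and 0.21). The member called higher was IRF1, a transcription factor of the interferon response, with 20.4, 35.3 and 21.3 CPM in BZ and 10.6, 12.2 and 16.3 CPM in Sham (0.98 ± 0.32, adjusted p = 0.031), which missed the threshold without Sham replicate 1 (0.85, adjusted p = 0.12), Sham replicate 2 (0.93, adjusted p = 0.10) or BZ replicate 2 (0.68, adjusted p = 0.18).

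**Figure D4:**
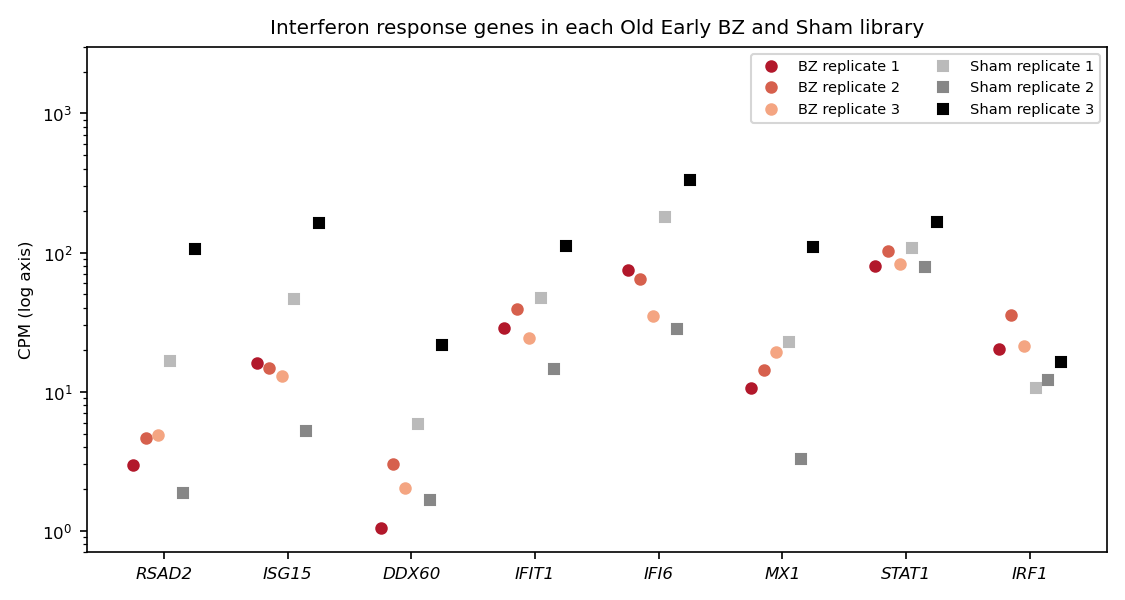
CPM (log axis) of 8 interferon response genes in the 3 Old Early BZ libraries (circles) and the 3 Old Early Sham libraries (squares). Sham replicate 3 is the highest library for the 7 genes other than IRF1, and Sham replicate 2 the lowest for 6 of them; for IRF1 all 3 BZ libraries are above all 3 Sham libraries.

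The border zone was set against the infarct zone of the same 3 pigs, and no single gene passed the test between the zones. Against Sham, 4785 genes (32.9%) were called in IZ, 2746 (18.9%) higher and 2039 (14%) lower. BZ and IZ share those Sham libraries, so the test that bears on the difference is BZ minus IZ within pigs, which called none of 14386 genes (0%) with edgeR; the smallest adjusted p was 0.82, and 850 genes had an unadjusted p under 0.05. DESeq2 called 5: MT1X, UPP1, CDA and ENSSSCG00000023684, lower in BZ, and INMT, higher in BZ. UPP1, uridine phosphorylase, had 8.17, 7.03 and 13.8 CPM in BZ and 86.6, 28.7 and 34.9 CPM in IZ of the same pigs, beside 0.42 to 0.638 CPM in Sham. MT1X, a metal-binding metallothionein, had 11.1, 7.44 and 15.3 CPM in BZ and 99.3, 43.7 and 20.4 CPM in IZ, beside 0.479 to 0.65 CPM in Sham. Both were lower in BZ than in IZ in all 3 pigs and higher in BZ than in every Sham library.

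The within-pig median log2 fold change, BZ minus IZ, was 0.45 for sarcomere genes, 0.41 for fatty acid oxidation genes and -0.79 for neutrophil genes, beside 0.02 for all genes tested. The pigs differed: the neutrophil list summed to 140.6, 76.1 and 159 CPM in BZ and 519.8, 128.5 and 150.2 CPM in IZ, lower in BZ of pigs 1 and 2 and higher in BZ of pig 3. SPP1 had 180.3, 364 and 1499 CPM in BZ and 518, 383 and 495 CPM in IZ, so pigs 1 and 2 were lower and pig 3 higher in BZ (BZ minus IZ 0.01 ± 0.84). MYBPC3 had 2084, 1624 and 1394 CPM in BZ and 907, 1735 and 1148 CPM in IZ (0.47 ± 0.30, adjusted p = 0.85). CCL2 had 116, 78.8 and 149 CPM in BZ and 391, 129.5 and 152 CPM in IZ, lower in BZ in all 3 pigs without passing the test (-0.82 ± 0.35, adjusted p = 0.82). With 3 pigs and a median standard error of 0.24, within-pig differences of this size were not detectable as single genes, which does not show that the zones are alike.

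**Figure D5:**
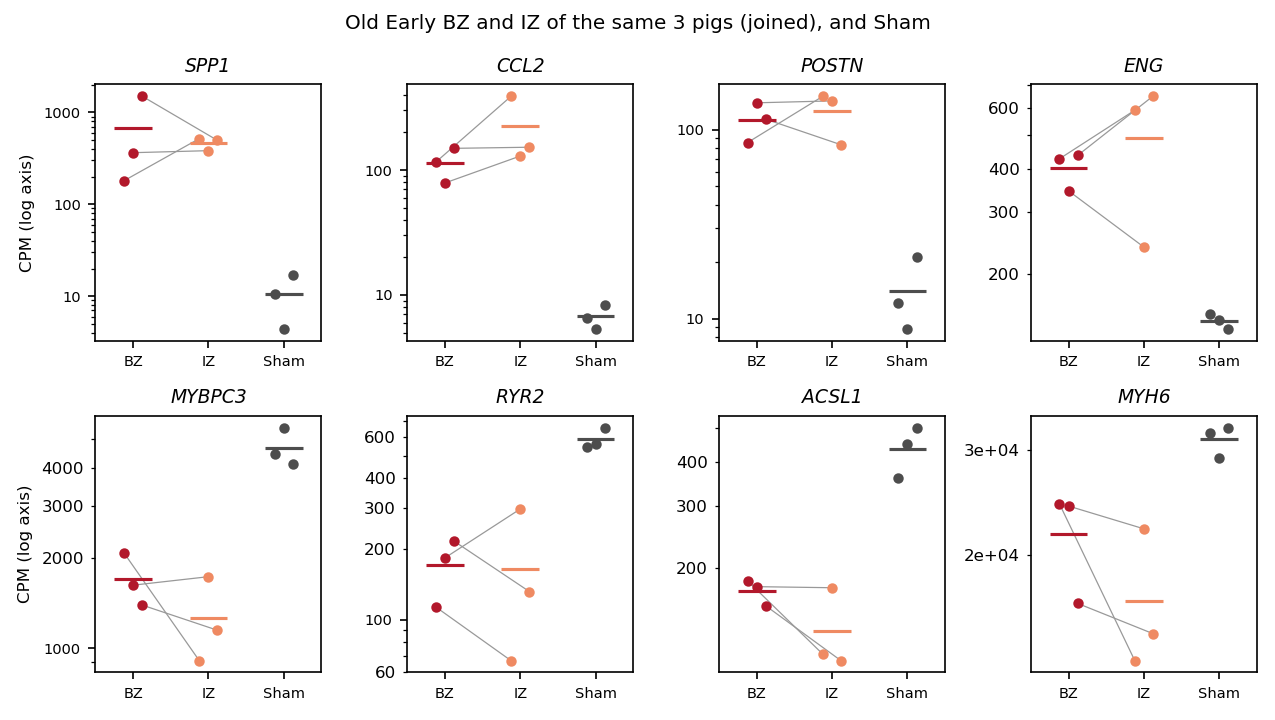
CPM (log axis) of 8 genes in Old Early BZ and IZ of the same 3 pigs (joined by lines) and in Old Early Sham, with bars at group means. For all 8 genes both zones lie on the same side of every Sham library, and the lines between zones differ in slope from pig to pig.

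The response of the border zone at this age was set against that of the youngest pigs by the difference between the 2 BZ minus Sham changes. The Old Early libraries were prepared in batch 2 and the Young Early ones in batch 1, each with its own Sham. The difference called 29 genes (0.199% of those tested), 18 (0.124%) with a more positive change in Old Early and 11 (0.0757%) with a more negative one; 23 were called with library preparation batch as a term. SOCS3 changed by 2.99 in Old Early and by 0.82 in Young Early, a difference of 2.17 ± 0.47 (adjusted p = 0.045). CORIN, the protease that activates natriuretic peptides, had 26.6, 23.4 and 32.7 CPM in Old Early BZ and 57.0, 57.35 and 97.8 CPM in Old Early Sham, and 40.9, 35.6 and 43.15 CPM in Young Early BZ and 19.0, 23.1 and 28.8 CPM in Young Early Sham (difference -2.11 ± 0.42, adjusted p = 0.032). The direction of CORIN in BZ against Sham was opposite at the 2 ages in all libraries. These calls were fragile: the count was 0 when the 4 groups were fitted alone, 0 with RNA integrity as a covariate, 0 without any 1 of 6 libraries (Young Early Sham replicates 1 and 3, Old Early Sham replicates 2 and 3, and Old Early BZ replicates 1 and 2), 14 without Old Early Sham replicate 1, and 11, 2134 and 49 when Young Early BZ replicates 1, 2 and 3 were left out in turn. CORIN kept its call in 5 of the 12 fits that leave out 1 library, and SOCS3 in 3.

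Set against the border zone 1 week after ligation at the same age, 158 genes (1.09%) differed in response (148 with library preparation batch as a term; Old Late libraries were prepared in batch 3), 109 (0.75%) with a more positive change at 1 week and 49 (0.337%) with a more negative one. Among the matrix lists, 11 of the 37 fibrillar collagen and other matrix genes and 5 of the 25 matricellular genes had a more positive change at 1 week and none a more negative one. Of the 15 basement membrane genes and of the 24 matrix proteases and inhibitors, none had a more positive change and 1 each a more negative one. COL11A1, a minor fibrillar collagen chain, had 48.9, 26.0 and 51.0 CPM in Old Late BZ and 0.688, 0.344 and 0.376 CPM in Old Late Sham, and 0.224, 0.263 and 0.622 CPM in Old Early BZ and 0.479, 0.520 and 0.497 CPM in Old Early Sham (difference 6.85 ± 1.01, adjusted p = 0.00075). It was high only in BZ at 1 week among these 4 groups. Of 22 endothelial genes, 5 had a more negative change at 1 week and none a more positive one. PECAM1 had 123.8, 109.6 and 103 CPM in Old Late BZ and 113, 107 and 98.4 CPM in Old Late Sham, so that its change was 0.08 at 1 week and 1.53 at 1 day (difference -1.45 ± 0.30, adjusted p = 0.013). The count was 56 to 192 when 1 of the 12 libraries was left out, lowest without Old Late BZ replicate 1, and it moved by over 1.5 times also without Old Late Sham replicate 1 (63), Old Early Sham replicate 1 (90), Old Early Sham replicate 3 (80) or Old Early BZ replicate 2 (68). COL11A1 kept its call in all 12 such fits and PECAM1 in 11.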

How the data were processed

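PolyA RNA was read as 76 bp pairs from stranded libraries, per the labels' protocols. Per the submitters' processing notes, the authors used bcl2fastq 2.19.0.316, Trimmomatic 0.36, STAR and featureCounts (Subread 1.5.1); the genome build, annotation and strand setting are not given in the sources used here, so genes that overlap are uncertain (839 of the 3084 called share exon bases with another gene). Per the file headers, the deposited table holds raw read counts for each gene and no normalized values. A table of pig gene names gave symbols for 14857 genes.

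Counts were filtered (edgeR filterByExpr, minimum count 10, total 15), scaled by TMM and fitted with edgeR 4.0.16 (R 4.3.3; quasi-likelihood, robust) over all 36 libraries with 12 group means and 24 residual degrees of freedom. BZ minus IZ used the 24 libraries of infarcted pigs with the pig as a block (8 residual degrees of freedom); BZ and IZ pair by pig in the titles; for Old Late BZ replicate 3 the title and the individual field name different pigs, and the title was used. Benjamini-Hochberg adjustment ran over all genes tested. Intervals cover counting error only. Counts of 14419 genes were simulated for BZ minus Sham. Of 100 genes changed 2-fold 34% were recovered, and of 100 changed 4-fold 86%, with 6 of 14219 unchanged genes called. Fewer genes were changed than the 3084 called in the data, so these shares may not apply there.

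The comparison, the 40 gene lists (1007 members, 827 tested), the panel of 46 genes (41 found) and the naming rule were chosen with earlier results of these data known. List members with no symbol match were not tested, among them NPPA, MYH7, TNNI3, TTN, S100A9, CXCR2 and FPR1. The rule takes the 15 largest rises and 15 largest falls (log2 CPM at least 1, no overlap), 3 called and 2 abundant members of each list, the panel, and 5 genes a direction from the other comparisons. The text prints some of the 215 genes named, 147 of them called in BZ minus Sham and 101 with the call in all 6 fits that leave out 1 library. CDA, FGF1, FGL2, ICAM1, IL1R2, INMT, IRF1, LAMB2, MMP2, MMP11, NRG1, P4HA2, PDGFC, PFKFB4 and both genes without a symbol lie outside the rule and were named after their values were seen. Alternatives used DESeq2 1.42.0 and limma 3.58.1. Replicate numbers follow accession order.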

Additional observations from a re-analysis of the deposited data

Results flagged for a closer look

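Each result here is a difference between 2 responses, BZ minus Sham, tested by an interaction term with edgeR over 3 libraries in each of 4 groups, and was singled out because that difference passed the adjusted threshold. Between Old Early and Young Early, CORIN differed by -2.11 (-1.36 in Old Early, 0.76 in Young Early), KCNJ3 by -1.78 ± 0.39 (-1.37 and 0.41, adjusted p = 0.046), FGF1 by -1.61 ± 0.34 (-1.49 and 0.12, adjusted p = 0.04) and SOCS3 by 2.17 (2.99 and 0.82). As the report gives, the number of such calls went to 0 when single libraries were left out. KCNJ3 kept its call in 1 of the 12 fits that leave out 1 library.

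Between Old Late and Old Early, COL11A1 differed by 6.85 (6.44 in Old Late, -0.41 in Old Early), PECAM1 by -1.45 (0.08 and 1.53), CORIN by 2.31 ± 0.42 (0.95 and -1.36, adjusted p = 0.0038) and BGN by 2.38 ± 0.58 (4.73 and 2.35, adjusted p = 0.037). CORIN had 77.3, 55.2 and 77.2 CPM in Old Late BZ and 41.1, 35.6 and 31.7 CPM in Old Late Sham, so its direction was opposite at 1 week and at 1 day, and its call was kept in all 12 fits that leave out 1 library. BGN kept its call in 4 of the 12.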

How the results depend on the processing

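The counts of genes higher and lower in BZ than in Sham were within 1.5 times of the main ones under DESeq2 (2117 and 1482), its size factors in edgeR, no count filter (1768 and 773), the groups alone, RNA integrity, library batch or sex as a term, no mitochondrial genes, and without Young Early BZ replicate 2 (2554 and 1683, chosen after seeing the data). A minimum log2 change of 1 left 466 lower genes. With 1 library left out, 1227 to 1726 genes were higher and 551 to 775 lower. BZ and Sham come from different pigs and carry no replicate numbers in the labels, so the replicate block is the pig shared by zones: with it as a random effect (limma-voom, correlation 0.378), 1785 genes were higher and 1280 lower, 19 differed by age and 103 between 1 week and 1 day.

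BZ minus IZ gave 5 calls with DESeq2, 0 with no replicate block and 0 to 1 with 1 library left out (ENSSSCG00000023684, without BZ or IZ replicate 3). The age comparison gave 591 with DESeq2, 0 with the groups alone or RNA integrity, 364 at an adjusted p under 0.1 and 0 to 2134 with 1 library left out; the later time gave 390, 301, 67, 322 and 56 to 192. The cause was not tested.

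Of 87 genes named in the text and called, 82 kept their call under every setting that keeps all libraries and 73 in all 6 fits that leave out 1; none changed direction. Of the uncalled ones, PDK4 turned to 0.66 with limma-voom. With 1 library left out, PDK4 ran from -0.63 to 1.28, CDK1 from -0.35 to 0.061, INMT from -0.83 to 0.26 and CCND1 from -0.011 to 0.14. With 3 pigs a group, 34% of simulated 2-fold changes were called, in a simulation that changed fewer genes than were called in the data. The effect of depth was not tested.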

Other observations

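Further gene lists are given here beside the 13.5% of all genes tested that rose and the 7.73% that fell. Of 31 apoptosis, autophagy and oxidative stress genes, 9 rose and 1 fell, with a median of 0.32. PYCARD, the adaptor protein of inflammasomes, had 8.97, 3.27 and 9.89 CPM in BZ and 0.319, 1.15 and 1.26 CPM in Sham (3.00 ± 0.61, adjusted p = 0.0011). Of 21 YAP target genes, 7 rose and 1 fell (median 0.24), and of 9 epicardial and mesothelial genes, 5 rose and none fell (median 1.31). SFRP5, a secreted Wnt antagonist of the epicardial list, had 5.30, 1.43 and 4.64 CPM in BZ and 0.319, 0.26 and 0.764 CPM in Sham (3.02 ± 0.69, adjusted p = 0.0027). Of 17 glucocorticoid response genes, 5 rose and none fell (median 0.63). CEBPD, a transcription factor that glucocorticoids and cytokines induce, had 113, 66.1 and 67.0 CPM in BZ and 18.5, 11.1 and 16.2 CPM in Sham (2.43 ± 0.52, adjusted p = 0.0016).

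Of 24 cytosolic ribosomal protein genes, 2 rose and none fell, a smaller share than among all genes, with a median of 0.56; without Sham replicate 3, 1 was higher. RPL3 had 772, 637 and 676 CPM in BZ and 248, 329 and 278 CPM in Sham (1.28 ± 0.30, adjusted p = 0.0034), and it shares exon bases with a neighbour.

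Several lists were also counted without Sham replicate 3. Over all genes tested, rises then went from 1961 to 1478 and falls from 1123 to 711. Lower counts in a list can therefore not be tied to this library, and only this library was left out here. Of 21 cardiac transcription factors and metabolic regulators, 1 rose and 5 fell (median -0.56), against none and 3 without Sham replicate 3 (median -0.46). Of 10 complement genes 1 rose (median 1.05), against 3 without it (median 1.69). Of 8 adipocyte genes 2 rose and 2 fell (median -0.17), against 1 and 1 without it (median 1.15). Of 9 skeletal muscle genes 2 rose, against none without it. Of 18 circadian clock genes none rose and 2 fell (median -0.31), of 11 Schwann cell and neuron genes 1 rose, of 9 atrial genes 1, KCNJ3, fell, and none of 8 red blood cell genes or of 2 sex chromosome genes passed the test.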
